A study of Mus musculus with 35 samples.

Results

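The Rab GTPase genes are described here in single mouse peritoneal macrophages exposed to lactate. A gene was taken as a member when its symbol was Rab followed by a number, with at most 1 letter and 1 digit after it, so that interacting proteins with longer names were left out. The rule gave 59 genes, all listed in each of the 3 count tables, which hold 32285, 32285 and 35624 genes. Of these 59 genes, 51 had a count in at least 1 of the 35 cells and 8 had none, namely Rab9b, Rab15, Rab17, Rab25, Rab33a, Rab39b, Rab40b and Rab42.

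Rab proteins are small GTPases that mark the membranes of a cell. Bound to GTP they sit on a particular membrane and recruit effectors that move, tether or fuse vesicles. Bound to GDP they are drawn off the membrane by the protein GDI. Exchange factors load the GTP and GTPase-activating proteins end the active state. In a macrophage, a swallowed particle passes from a Rab5-marked early phagosome to a Rab7-marked one before it meets the lysosome, while Rab11, Rab8 and Rab10 return membrane to the surface and Rab1, Rab2 and Rab6 work between the endoplasmic reticulum and the Golgi. The 59 genes were grouped by the compartment each is best known for, which gave 16 Golgi, 11 early endosome, 10 recycling, 9 late endosome, 9 secretory and 4 other genes, with 13 of them also known from phagosomes.

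All cells were primary macrophages from the abdominal cavity of male C57BL/6 mice aged 6 months, purified by adherence in culture. In scMeT-seq a capillary first drew cytoplasm from the cell for mass spectrometry of its metabolites, and the rest of the cell was then lysed for a full-length SMART-seq2 RNA library. The lactate experiment held 8 cells labelled Lactic (10 mM lactate) and 8 cells labelled CTL, both carried through scMeT-seq. The AZD3965 experiment held 5 lactate+AZD cells (10 mM lactate and 300 nM AZD3965, an inhibitor of the lactate carrier MCT1) and 5 lactate cells, named by the letters T, W and F, whose meaning the labels do not give. A technique comparison held 4 lactate cells taken through scMeT-seq, 3 lactate cells sequenced whole and 2 control cells sequenced whole. The study's methods give 72 h for the treatments. No source names the animal or the culture of a cell, so each group was treated as 1 sample. The counts of a group's cells were therefore added up and compared as CPM, counts scaled to a common total, and the 95% intervals cover counting error only. Reads carried no molecular identifiers, so the true uncertainty is wider, and no comparison below has a replicate check.

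Near-identical members of a family are a first concern in Rab counts, so the sequences that separate them are shown for the 5 families whose balance is followed below. The stretch printed is 60 coding bases around the GTP-binding switch, a well conserved part of the protein, and capitals mark the bases that are not the same in all members of that family. The 3 Rab5 genes differ at 17 of the 60 positions (Rab5a on chromosome 17 at 53497568-53497627, plus strand; Rab5b on chromosome 10 at 128683246-128683305, minus strand; Rab5c on chromosome 11 at 100718482-100718541, minus strand; all in exon 3, GRCm38).
Rab5a: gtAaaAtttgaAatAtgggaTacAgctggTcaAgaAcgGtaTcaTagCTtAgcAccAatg
Rab5b: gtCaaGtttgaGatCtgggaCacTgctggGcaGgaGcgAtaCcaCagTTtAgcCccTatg
Rab5c: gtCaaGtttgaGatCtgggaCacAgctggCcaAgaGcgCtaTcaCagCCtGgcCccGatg
The Rab7 pair differs at 21 positions (Rab7 on chromosome 6 at 88005164-88012318, minus strand; Rab7b on chromosome 1 at 131697944-131698463, plus strand; exons 3 and 4 with the intron between them).
Rab7: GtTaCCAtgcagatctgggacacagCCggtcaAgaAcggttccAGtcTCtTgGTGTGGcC
Rab7b: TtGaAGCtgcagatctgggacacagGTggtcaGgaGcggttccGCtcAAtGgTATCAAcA
The Rab2 pair differs at 10 positions (Rab2a on chromosome 4 at 8572570-8577990, plus strand; Rab2b on chromosome 14 at 52268965-52275466, minus strand; exons 3 and 4).
Rab2a: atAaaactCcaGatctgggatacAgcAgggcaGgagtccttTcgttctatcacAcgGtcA
Rab2b: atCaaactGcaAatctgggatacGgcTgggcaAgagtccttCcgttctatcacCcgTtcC
The Rab11 pair differs at 13 positions (Rab11a on chromosome 9 at 64726817-64728292, minus strand; Rab11b on chromosome 17 at 33749060-33749840, minus strand; exons 2 and 3).
Rab11a: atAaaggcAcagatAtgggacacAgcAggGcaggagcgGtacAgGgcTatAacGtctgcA
Rab11b: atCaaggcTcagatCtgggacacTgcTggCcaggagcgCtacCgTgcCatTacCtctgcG
The Rab8 pair differs at 8 positions (Rab8a on chromosome 8 at 72168471-72171282, plus strand; Rab8b on chromosome 9 at 66860855-66863439, minus strand; exons 2 and 3).
Rab8a: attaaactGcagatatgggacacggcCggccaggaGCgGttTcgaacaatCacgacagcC
Rab8b: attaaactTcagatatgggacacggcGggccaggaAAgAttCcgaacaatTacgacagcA
Across the 10 pairs compared in 8 families, the longest run of bases that 2 family members share exactly was 14 to 38 bases, longest between Rab1a and Rab1b, followed by 35 bases between Rab5a and Rab5b and 18 between Rab7 and Rab7b. Overlap with other genes was larger than overlap between family members for some genes. Exons of another gene covered 75.4% of the exon bases of Rab43, 69.4% of Rab4b, 64.0% of Rab2b, 62.4% of Rab24, 25.6% of Rab20 and 19.0% of Rab6a. The counting is not stated to use strand, so reads of such pairs cannot be told apart, and the partner's values are given where a ratio of such a gene is described and the partner was listed in the same table.

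Total counts per cell ran from 269393 to 459859 in the lactate experiment, from 494520 to 851417 in the technique comparison and from 58444 to 175450 in the AZD3965 experiment. A single cell showed 20 to 43 of the 59 Rab genes. Of the 18 macrophage markers examined, 12 to 18 were detected in each cell, but 4 cells carried fibroblast collagen and matrix markers at 10% or more of their summed macrophage markers. These were Lactic29 (17.9%), CTL30 (26.6%), W14 (61.5%) and CTL32, in which fibroblast markers summed to 46795 CPM and macrophage markers to 1254 CPM. They are called fibroblast-marked cells below and went against their label to that degree. The lactate cell W5 also held 9 fibroblast markers, at 6887 CPM, but these came to 6.26% of its macrophage markers. The counts over Rab genes and most genes described in the first 2 comparisons are given with and without the fibroblast-marked cells, which take no part in the technique comparison. Their part in any difference between groups was not tested further.

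Together the 59 genes took about the same share of all counts in every group. Per cell their sum had a median of 3165 CPM in Lactic cells (1785 to 3585) and 3260 CPM in CTL cells (2635 to 4785). In the AZD3965 experiment it had a median of 3764 CPM in lactate+AZD cells (3109 to 5318) and 3500 CPM in lactate cells (3237 to 4556). In the technique comparison it had a median of 3619 CPM in the scMeT-seq cells (2754 to 3981), 3554 CPM in the whole lactate cells (3151 to 3565), and the 2 whole control cells had 3208 and 3869 CPM. The ranges of the groups overlapped throughout. The lowest of all cells was Lactic31 and the highest W14, the fibroblast-marked lactate+AZD cell.

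The most abundant members per length came from several compartments. In CPM per kilobase of exon, over the 16 cells of the lactate experiment, the order was Rab11a (101.5), the marker of recycling endosomes, Rab31 (90.2), which works between the trans-Golgi network and early endosomes, Rab32 (71.4), a regulator of lysosome-related organelles, Rab1b (62.7) and Rab1a (59.6), which carry cargo to the Golgi, Rab8b (56.3), an exocytic and recycling Rab, Rab2a (42.9), Rab7 (37.5), Rab5c (37.0) and Rab4b (31.1). Rab20, a phagosome-associated Rab, stood just outside these 10 at 30.5. With the longest transcript as the length, Rab14 moved to rank 6 and Rab5c to rank 11, so neighbours in this order are not separated. The level within a group varied widely from cell to cell, with Rab31 at 69.2 to 449 CPM (median 384) in Lactic cells and 163 to 519 CPM (median 296) in CTL cells. Rab11a ran from 107 to 409 CPM (median 208) in Lactic cells and from 214 to 598 CPM (median 322) in CTL cells. Rab14 ran from 72.7 to 403 CPM (median 292) in Lactic cells and from 161 to 467 CPM (median 266) in CTL cells.

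**Figure D1:**
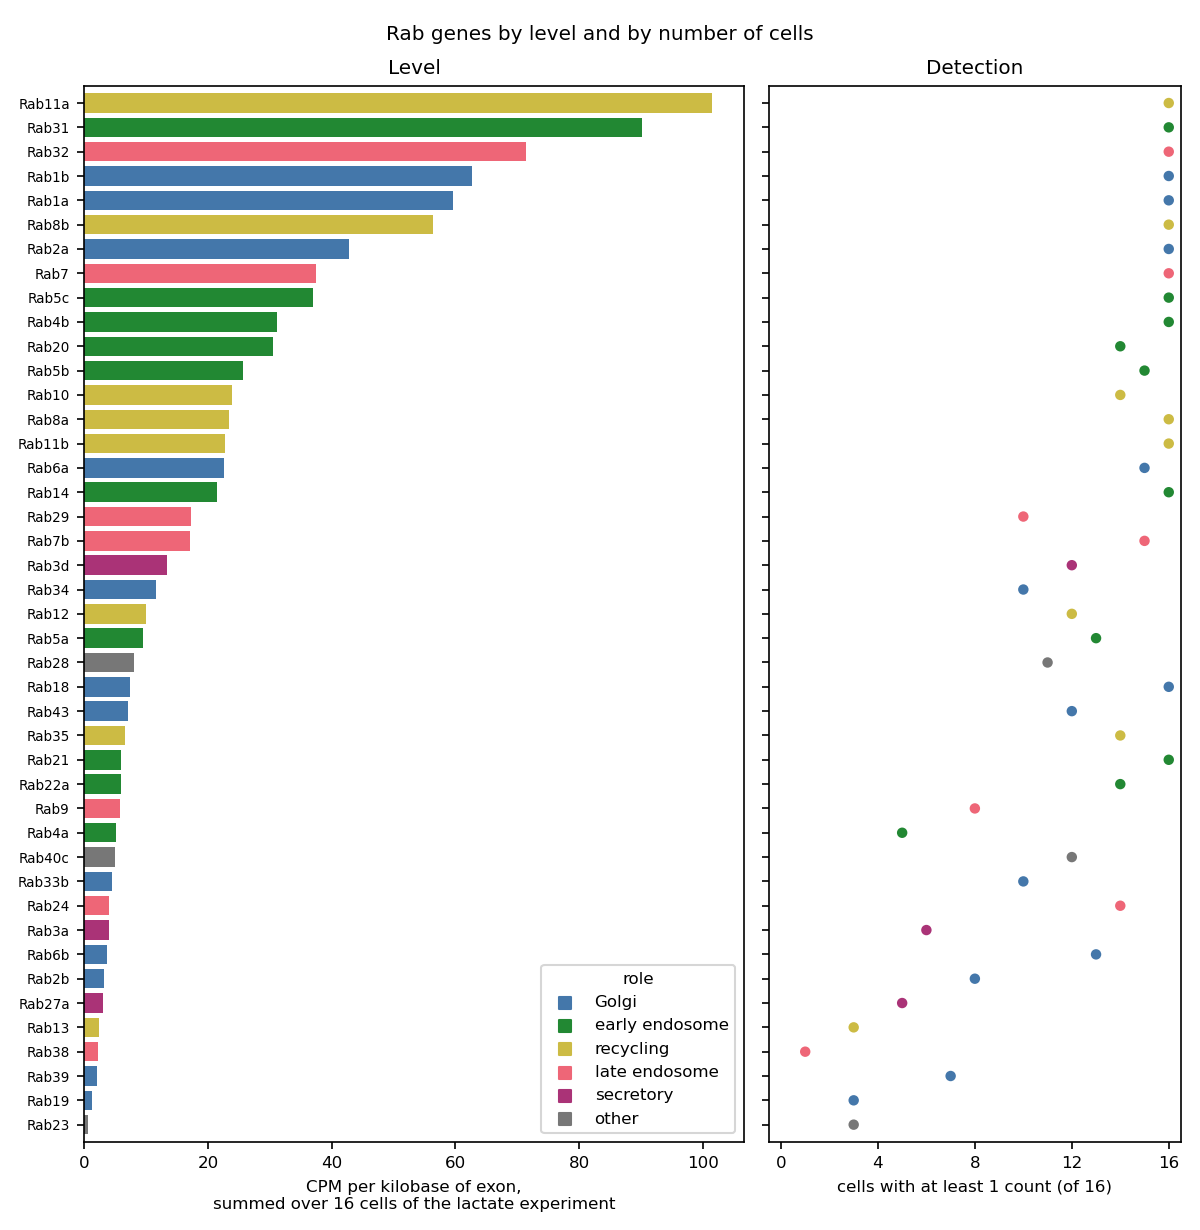
Rab genes with 10 counts or more in the lactate experiment, ordered by level. Bars give CPM per kilobase of exon over the summed counts of 16 cells and points give the number of those cells with at least 1 count, coloured by compartment. Rab11a, Rab31 and Rab32 stand at the top, and all 10 most abundant genes were found in all 16 cells.

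Detection split the family. Rab1a, Rab1b, Rab5c, Rab7, Rab8b, Rab11a, Rab11b, Rab14 and Rab31 had a count in every one of the 35 cells, so that the steps of the phagosome pathway set by Rab5, Rab14, Rab7 and Rab11 were each represented by at least 1 member in every cell. Of the 9 secretory genes, several were sparse although each had a count. Rab37, Rab26 and Rab3b had 2, 3 and 5 counts over all 35 cells, Rab44 had 10 counts over 9 cells, and Rab27b had 19 counts over 3 cells. Rab3d, an exocytic Rab of secretory granules, was the most widespread of them with 29 of 35 cells. Rab38, the close relative of Rab32, had all of its 21 counts in CTL32.

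**Figure D2:**
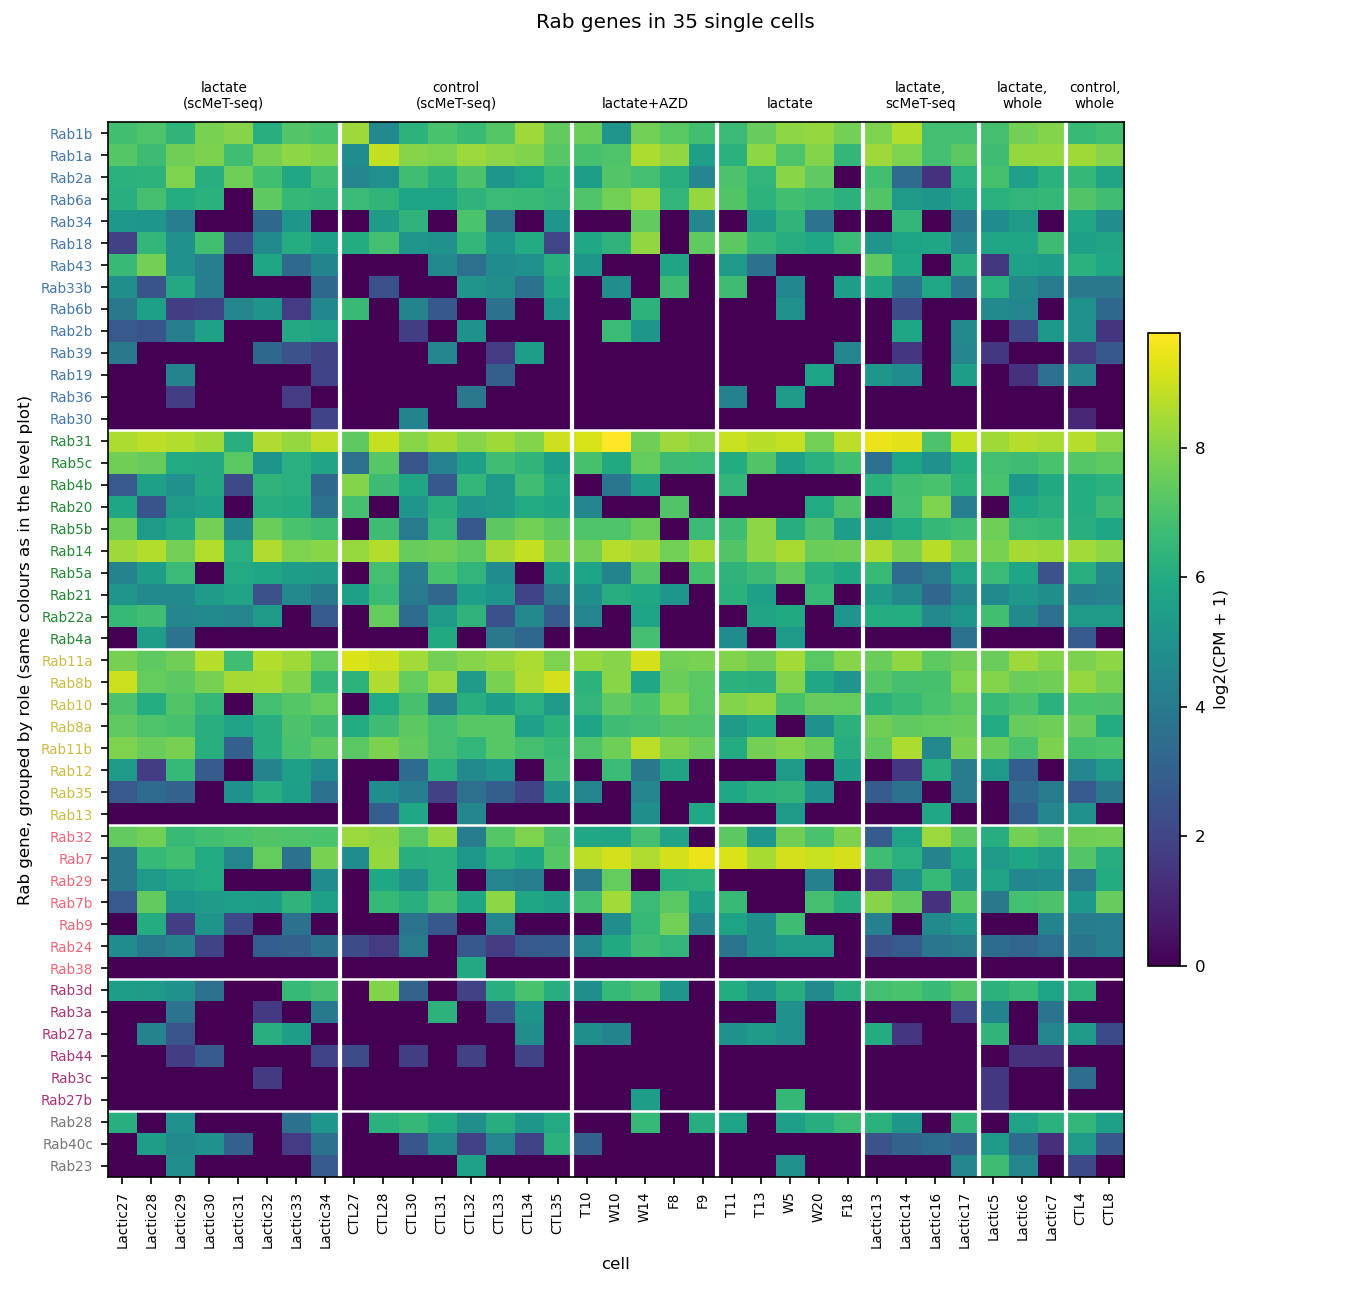
Rab genes with 10 counts or more over all cells (rows, grouped and coloured by compartment) in each of the 35 cells (columns, by group), as log2(CPM + 1). The rows of Rab31, Rab14, Rab11a and Rab7 are filled in every cell, and Rab7 is brightest in the 10 cells of the AZD3965 experiment.

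The first comparison asks how the Rab genes of Lactic cells stand against those of CTL cells. Of the 59 genes, 43 had the 10 counts over both groups that were required. Among them 6 were at least 2-fold higher in Lactic cells (15.1% of the 11506 genes measured were), 7 were at least 2-fold lower (22.0% of all genes were), and 30 lay within 2-fold. The median log2 ratio was -0.14 over the Rab genes and -0.09 over all genes. Without the fibroblast-marked cells, 7 of 39 were higher (19.9% of all genes) and 7 lower (18.3%), with a median of -0.23. The shares of Rab genes were thus close to those of all genes, and what follows describes single members.

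Among Golgi genes (12 measured, 3 higher, 2 lower, median log2 ratio -0.03), Rab2b and Rab43 were higher in Lactic cells. Rab2b, which acts with Rab2a at the Golgi and in autophagosome clearance, was counted in 6 Lactic cells (lowest 0, median 11.4, highest 58.2 CPM) and in 2 CTL cells (lowest 0, median 0, highest 30.4 CPM). The log2 ratio was 2.48 (95% interval 1.58 to 3.497), and 30.4 CPM of CTL cells belonged to CTL32, so that without the fibroblast-marked cells 62 counts in Lactic cells stood against 0 in CTL cells. Tox4, whose exons overlap those of Rab2b on the opposite strand, had a log2 ratio of 0.66 (0.37 to 0.96). Rab43, a Golgi Rab also found on phagosomes, had 0, 24.7 and 212 CPM (lowest, median, highest) in Lactic cells and 0, 17.9 and 70.7 CPM in CTL cells. Its log2 ratio of 1.56 (1.12 to 2.02) dropped to 0.77 without Lactic28, the highest cell, and was 1.34 without the fibroblast-marked cells. Rab34, which acts in macropinocytosis and phagosome maturation, went the other way at 17.4 CPM in the Lactic sum and 38.4 CPM in the CTL sum, a log2 ratio of -1.14 (-1.64 to -0.66). Without the fibroblast-marked cells the ratio of Rab34 was 0.13 (-0.54 to 0.80), and without CTL32 alone it was -0.57. Rab19, with 9 counts in 2 Lactic cells and 3 counts in 1 CTL cell, had a log2 ratio of 1.54 with an interval that held 0, and without the fibroblast-marked cells 1 and 3 counts were left. Rab39 had 12 counts in Lactic cells and 24 in CTL cells, a log2 ratio of -1.05 that became 0.19 without CTL34 and -1.27 without the fibroblast-marked cells.

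The early endosome genes (10 measured, 0 higher, 1 lower, median -0.25) showed 1 difference of 2-fold. Rab4b, a Rab of fast recycling, was counted in all 16 cells, at 3.46, 37.9 and 80.5 CPM (lowest, median, highest) in Lactic cells and 5.49, 75.02 and 249 CPM in CTL cells. The log2 ratio was -1.0 (-1.32 to -0.68), and it was -0.67 without CTL27, the highest CTL cell, and -1.01 without the fibroblast-marked cells. Rab5c, which drives fusion of early endosomes, was 1.56-fold higher in the Lactic sum (log2 ratio 0.64, 0.37 to 0.91), with a median of 66.7 CPM in Lactic cells and 45.2 CPM in CTL cells, and its log2 ratio was 0.44 without the fibroblast-marked cells. Rab14 and Rab31, at 294 and 354 CPM in the Lactic sum and 289 and 333 CPM in the CTL sum, had log2 ratios of 0.03 (-0.11 to 0.16) and 0.09 (-0.04 to 0.21). For these 2 genes the counting interval leaves no room for a 2-fold difference between these sums of cells.

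Recycling genes (8 measured, 0 higher, 1 lower, median -0.05) included Rab10, a phagosome and GLUT4-vesicle Rab, which stood just inside the 2-fold limit. It had a median of 123 CPM in Lactic cells (0 to 175) and 52.9 CPM in CTL cells (0 to 121), and the log2 ratio was 0.99 (0.72 to 1.27), or 1.35 (1.01 to 1.71) without the fibroblast-marked cells. Rab11a was 1.37-fold lower in the Lactic sum (log2 ratio -0.46, -0.59 to -0.32). Rab13, a Rab of epithelial junctions, was the lower one, with no count in Lactic cells and 33 in CTL cells, of which 22 were in CTL30 and 8 in CTL32. Without the fibroblast-marked cells it was left with 3 counts and no ratio.

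Late endosome genes (7 measured, 2 higher, 1 lower, median -0.22) had Rab9 and Rab24 on the higher side. Rab9, which returns receptors to the trans-Golgi network, had 45 counts in 5 Lactic cells and 16 counts in 3 CTL cells, a log2 ratio of 1.44 (0.59 to 2.37) that was 0.33 without Lactic28 and 1.73 without the fibroblast-marked cells. Rab24, linked to autophagy, was counted in 7 of 8 cells of both groups at low levels, with medians of 9.22 CPM in Lactic cells and 4.62 CPM in CTL cells and a log2 ratio of 1.13 (0.22 to 2.12), or 1.63 without the fibroblast-marked cells. Prelid1, which overlaps Rab24 on the opposite strand and was far more abundant, had a log2 ratio of 0.37 (0.21 to 0.53). Rab7 itself, the Rab of late phagosomes, overlapped widely between the groups, at 11.6, 77.5 and 221 CPM in Lactic cells and 26.0, 71.2 and 302 CPM in CTL cells, with a log2 ratio of -0.20 (-0.44 to 0.03). Without the fibroblast-marked cells the ratio of Rab7 was -0.48 (-0.74 to -0.22). Rab32 was 1.40-fold lower in the Lactic sum and Rab7b 1.62-fold lower, and without CTL33, its highest cell at 279.6 CPM, the log2 ratio of Rab7b was -0.14. Rab38 was the late endosome gene past 2-fold on the lower side, through CTL32.

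Of the 3 secretory genes measured, Rab27a, which docks secretory granules and lysosomes at the plasma membrane, gave the highest ratio of the comparison. It was counted in 4 Lactic cells at 4.90, 19.5, 41.9 and 71.8 CPM and in 1 CTL cell at 26.4 CPM, with a log2 ratio of 2.71 (1.70 to 3.91), and of 2.44 without the fibroblast-marked cells. Without Lactic32, which held the most counts, the ratio of Rab27a was 1.83, and without CTL34 no count was left in CTL cells. Rab3a had 11 counts in 3 Lactic cells and 42 in 3 CTL cells (log2 ratio -1.98, -3.09 to -1.0), which was -0.48 without CTL31 and -3.08 without the fibroblast-marked cells. Rab3d, at 42.1 CPM in the Lactic sum and 70.0 CPM in the CTL sum, had a ratio of -0.73 that became 0.10 without CTL28 and -1.07 without the fibroblast-marked cells. In the last group Rab28, a Rab of the primary cilium, was counted in 4 Lactic cells (0, 5.82 and 70.0 CPM, lowest, median, highest) and in 7 CTL cells (0, 60.9 and 91.0 CPM). Its log2 ratio of -1.64 (-2.11 to -1.19) stayed between -2.36 and -1.40 when each cell in turn was left out, and was -1.75 without the fibroblast-marked cells.

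**Figure D3:**
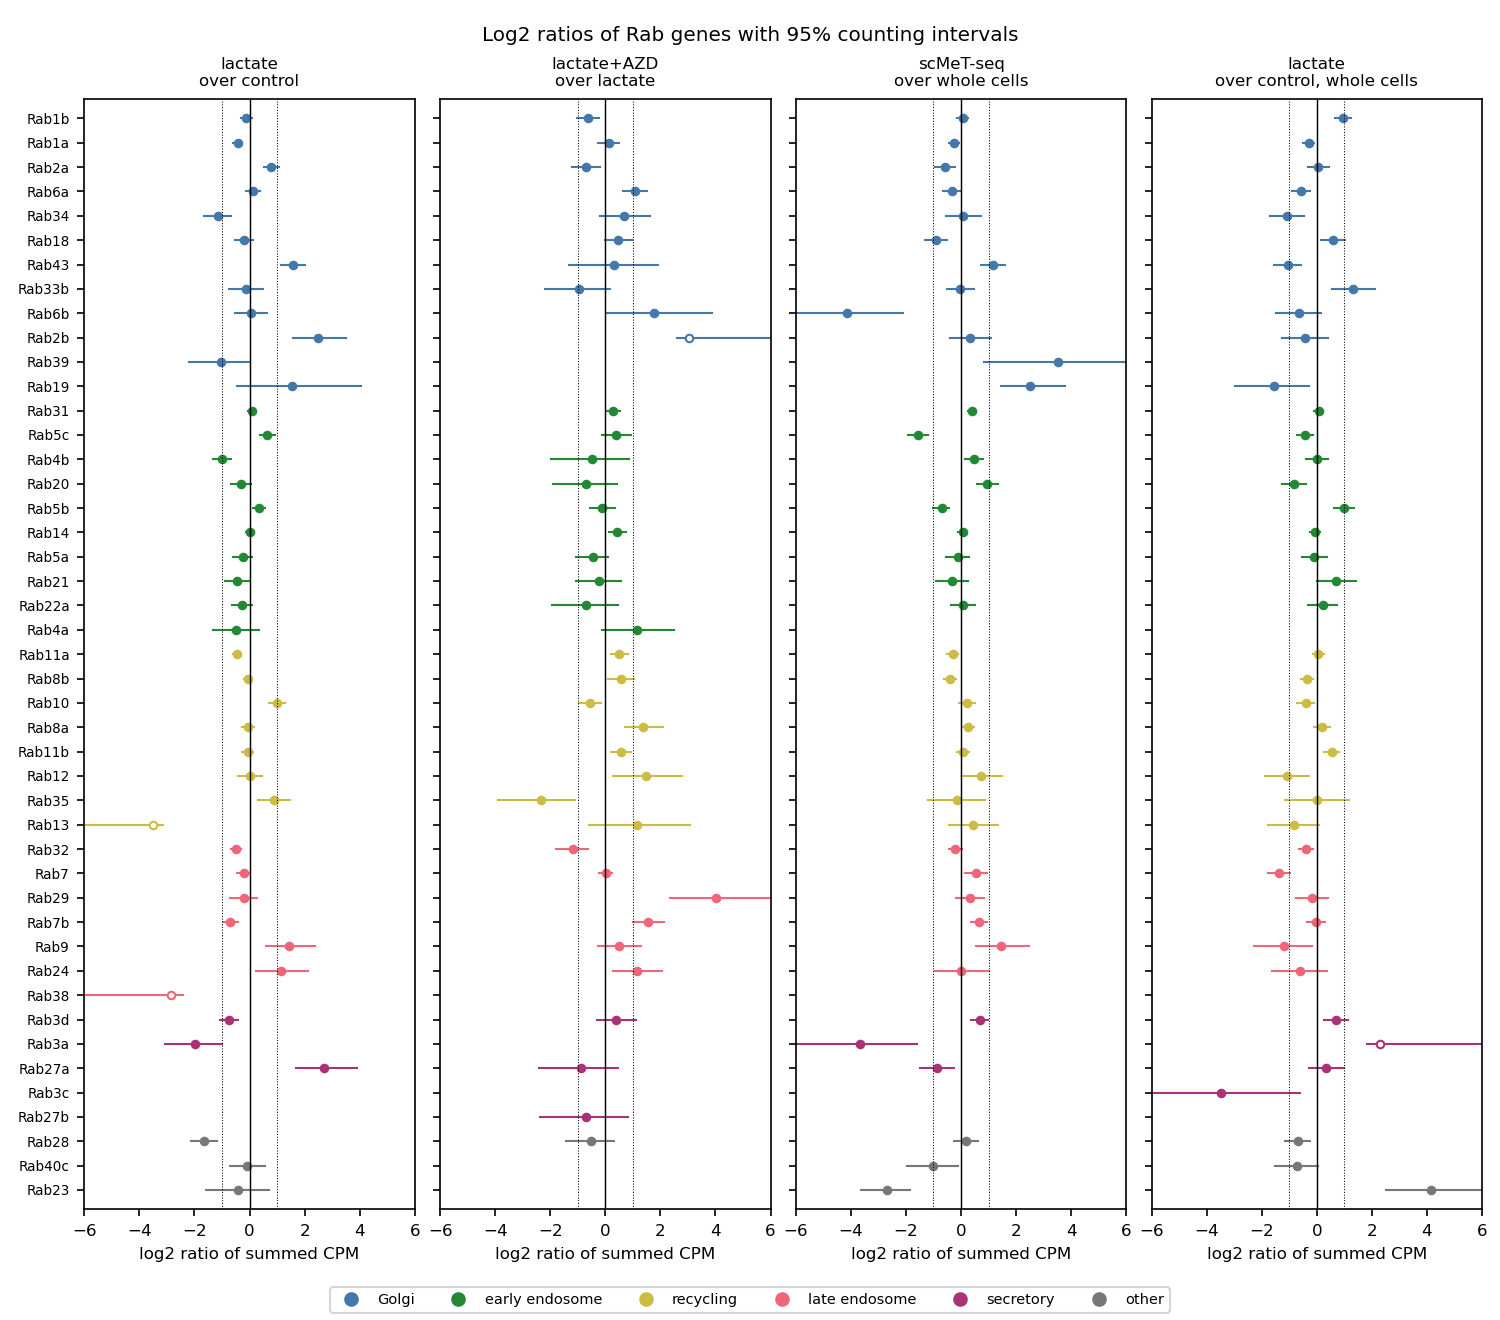
Log2 ratios of summed CPM (x axis) of the Rab genes with 10 counts or more in the 4 comparisons, with 95% counting intervals as lines, coloured by compartment. Dotted lines mark 2-fold, open points are ratios against a group with no count and are set at 3 counts, and intervals past 6 are cut at the edge. In lactate over control most points lie between the dotted lines, with Rab27a and Rab2b furthest to the right.

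The second comparison sets lactate+AZD cells against lactate cells, both kept in lactate. Of the 59 genes 38 were measured, with 10 at least 2-fold higher (24.9% of 8764 genes were) and 2 at least 2-fold lower (15.6% of all genes were). The median log2 ratio was 0.35 over Rab genes and 0.17 over all genes. This balance turned on 1 cell. Without W14, 5 of 36 genes were higher (20.5% of all genes) and 8 lower (21.6%), with a median of -0.17. With all cells and TMM scaling, 6 Rab genes were higher and 4 lower. That scaling moves the log2 ratio of every gene by -0.16, and the shares of all genes under it were not counted. The median log2 ratio of the fibroblast markers was -2.55 without W14, against 2.56 with it. Without both W14 and W5, 6 of 34 Rab genes were higher (23.0% of all genes) and 6 lower (20.1%), with a median of -0.18. W14 had the highest Rab sum of all cells and a Golgi Rab sum of 1577 CPM, against 753 CPM in the next lactate+AZD cell.

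Rab29, Rab7b, Rab8a, Rab12 and Rab2b were at least 2-fold higher with and without W14, and Rab35 and Rab32 at least 2-fold lower. Rab29, a partner of the kinase LRRK2 at lysosomes and the trans-Golgi network, had 14.2, 174, 0, 68.4 and 77.5 CPM in the lactate+AZD cells T10, W10, W14, F8 and F9, and it had 18.5 CPM in W20 and 0 in the other 4 lactate cells. The log2 ratio was 4.01 (2.36 to 6.35) on 39 and 3 counts, and 4.41 without W14. Rab7b, which works between late endosomes and the trans-Golgi network and is known in macrophages for dampening Toll-like receptor signalling, had 44.3 to 340.5 CPM (median 113) in 5 of 5 lactate+AZD cells and 0 to 117 CPM (median 66.3) in lactate cells, 2 of which had none. Its log2 ratio was 1.54 (0.99 to 2.11) and 1.71 without W14, while leaving out W10, the highest cell, gave 0.84.

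Rab8a, which carries vesicles to the plasma membrane, had 49.6 to 137 CPM (median 113) in lactate+AZD cells and 0 to 77.3 CPM (median 37.7) in lactate cells. The log2 ratio was 1.39 (0.71 to 2.09), 1.33 without W14, and between 1.09 and 1.62 when each cell in turn was left out. Rab12, a recycling Rab phosphorylated by LRRK2, had 20 counts over 3 lactate+AZD cells, against 9 over 2 lactate cells, and its ratio of 1.46 (0.26 to 2.78) became -0.11 without W10 and 1.71 without W14. Rab6a, the Rab of retrograde transport to the Golgi, had 85.6 to 311 CPM (median 207) in lactate+AZD cells and 77.3 to 138 CPM (median 98.7) in lactate cells. The log2 ratio of Rab6a was 1.08 (0.65 to 1.51) and 0.86 without W14, and that of Mrpl48, which overlaps it on the opposite strand, was -0.31 (-1.44 to 0.77). Rab24 had a log2 ratio of 1.14 (0.26 to 2.06) and 0.63 (-0.42 to 1.67) without W14, next to 0.36 (0.03 to 0.69) for Prelid1. Rab2b had 20 counts in W10 and W14 and none in lactate cells, which makes it at least 8.27-fold higher against a floor of 3 counts in the lactate sum. Without W14, Rab2b rested on 15 counts in W10 alone. Its partner Tox4 had a log2 ratio of -0.57 (-1.32 to 0.14) here. The groups were also compared within the letters T, W and F, with as few as 1 cell on a side. Of the 38 Rab genes compared, 7 were higher in all 3 letters, namely Rab6a, Rab7b, Rab8a, Rab8b, Rab14, Rab24 and Rab29. Rab22a, Rab28 and Rab32, 3 of the 38, were lower in all 3. In T, Rab14 (212.5 and 212.2 CPM), Rab24 (21.2 and 20.9) and Rab8a (49.6 and 47.8) were nearly level. The share of all genes with 1 direction in all 3 letters was not counted, so these counts do not show that Rab genes stand apart.

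On the lower side, Rab35, a Rab of fast recycling and phagosome formation, had 21.2, 0, 21.2, 0 and 0 CPM in the lactate+AZD cells T10, W10, W14, F8 and F9, and in lactate cells it had 30.8 to 82.4 CPM in 4 cells and 0 in F18. Its log2 ratio was -2.35 (-3.89 to -1.10) on 6 and 38 counts, and -2.95 without W14. Rab32 had 0 to 113 CPM (median 53.4) in lactate+AZD cells and 34.2 to 232 CPM (median 157) in lactate cells, with a log2 ratio of -1.19 (-1.79 to -0.62) and of -1.67 without W14. The phagosome members Rab7 (508 CPM in the lactate+AZD sum and 502 CPM in the lactate sum, log2 ratio 0.01, -0.21 to 0.24) and Rab14 (log2 ratio 0.43, 0.12 to 0.74) lay within 2-fold. Of the 13 phagosome-linked genes 12 were measured, with 0 higher and 1 lower (next to 24.9% and 15.6% of all genes). Without W14, 4 of the 12 were lower and 0 higher (21.6% and 20.5% of all genes), with a median of -0.32.

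**Figure D4:**
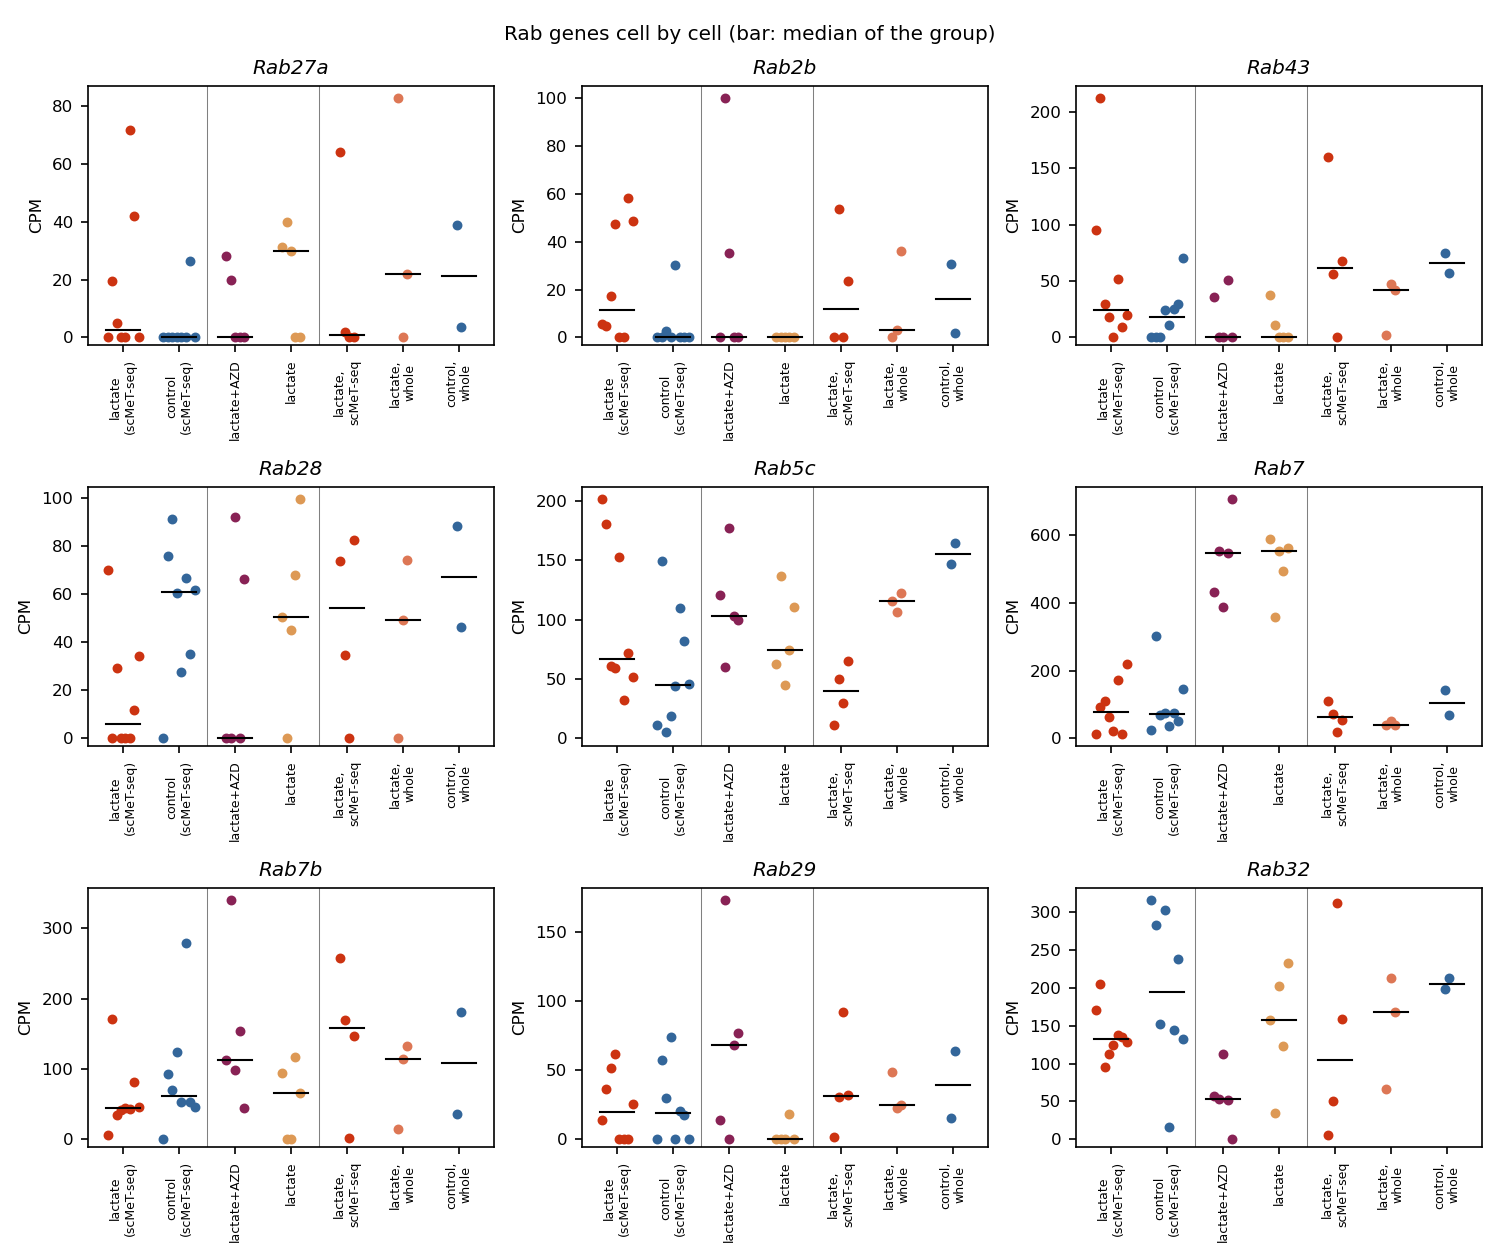
CPM (y axis) of 9 Rab genes in each cell, by group (x axis), with a bar at the group's median and lines between the 3 experiments. Rab29 has 1 lactate cell above 0, Rab28 is at 0 in 4 of 8 Lactic cells, and Rab7 of the AZD3965 experiment lies above all other cells.

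The technique comparison asks whether taking cytoplasm from a lactate-treated cell before lysis goes with a different Rab profile. Of 41 genes measured, 4 were at least 2-fold higher in the scMeT-seq cells (21.7% of 9723 genes were) and 5 at least 2-fold lower (20.6%), with 32 within 2-fold and a median of 0.06 (0.02 over all genes). Rab5c had 10.98, 29.8, 50.03 and 64.8 CPM in the scMeT-seq cells and 106, 115 and 123 CPM in the whole lactate cells. Its log2 ratio was -1.56 (-1.93 to -1.20). Rab19, a Golgi-associated Rab, had 0, 25.0, 34.5 and 42.7 CPM in the scMeT-seq cells and 0, 1.63 and 11.01 CPM in the whole cells (log2 ratio 2.51, 1.45 to 3.79). Rab9 and Rab43 had log2 ratios of 1.46 (0.56 to 2.46) and 1.15 (0.71 to 1.61), and that of Rab43 was 0.35 without Lactic13. Rab39 had 16 counts by scMeT-seq, against 1 count in whole cells (log2 ratio 3.51, 0.83 to 8.90), and its ratio was -0.02 without Lactic17. Rab3a, Rab6b, Rab23 and Rab40c were lower with ratios of -3.66, -4.13, -2.70 and -1.02 on 2, 2, 14 and 18 counts by scMeT-seq, against 18, 25, 65 and 26 counts in the cells sequenced whole. Without Lactic5 the ratio of Rab40c was 0.40 and that of Rab23 was -0.86.

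Whole lactate cells were also set against whole control cells, a second contrast of lactate that shares no cell with the first but shares its 3 lactate cells with the technique comparison. Here 3 of 41 genes were at least 2-fold higher (15.2% of 9732 genes were) and 7 lower (27.6% of all genes were), with a median of -0.16 (-0.20 over all genes). With TMM scaling, which moves the log2 ratio of every gene by 0.19, 5 were higher and 3 lower, and the shares of all genes were not counted. Rab7 had 38.4, 40.9 and 52.2 CPM in whole lactate cells and 67.8 and 143 CPM in whole control cells. Its log2 ratio was -1.36 (-1.77 to -0.96), and -0.62 without CTL4. Rab33b, a Golgi Rab that binds the autophagy protein Atg16l1, had 15.7, 24.5 and 72.8 CPM in whole lactate cells and 14.1 and 14.3 CPM in whole control cells (log2 ratio 1.31, 0.56 to 2.11, and 0.50 without Lactic5). Rab43 had 2.02, 42.5 and 47.3 CPM in whole lactate cells and 57.1 and 75.2 CPM in whole control cells (log2 ratio -1.06, -1.55 to -0.57). The other calls rested on few counts, among them Rab23 with 65 and 3 counts (log2 ratio 4.13, and 2.29 without Lactic5), Rab3a with 18 and 0, Rab3c with 1 and 9, Rab19 with 8 and 19, Rab9 with 13 and 24, Rab12 with 23 and 39 and Rab34 with 37 and 63.

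Set side by side, the 2 contrasts of lactate over control, by scMeT-seq and in cells sequenced whole, had the same sign for 16 of the 40 Rab genes measured in both (40%), next to 4452 of 9395 genes in all (47.4%). In 11 of these 40 Rab genes the interval left out 0 in both contrasts, and 5 of the 11 lay on the same side. The 11 genes are named next. The matching share over all genes was not counted, so agreement beyond that of all genes is not shown. Rab1a (-0.43 by scMeT-seq, -0.30 in whole cells), Rab28 (-1.64 and -0.69), Rab32 (-0.49 and -0.40) and Rab34 (-1.14 and -1.07) were lower in both, and Rab5b (0.34 and 0.99) was higher in both. For Rab34 this did not hold without the fibroblast-marked cells, where the first ratio was 0.13, and the ratio in whole cells was -0.33 without CTL4. For Rab1a, Rab28 and Rab32, Lactic5 was the lowest whole lactate cell. Lactic5, Lactic6 and Lactic7 had 107, 300 and 302 CPM of Rab1a, 0, 49.0 and 73.9 of Rab28, and 66.7, 212 and 168 of Rab32. CTL4 and CTL8 had 334 and 255, 88.1 and 46.4, and 198 and 212 CPM, so whole cells of the groups overlapped. They did not overlap for Rab5b, at 89.7 to 196 and 53.5 to 68.1 CPM. Opposite signs were found for Rab43 (1.56 and -1.06), Rab9 (1.44 and -1.19), Rab3a (-1.98, and at least 2.28 in whole cells), Rab10 (0.99 and -0.40), Rab5c (0.64 and -0.42) and Rab3d. The gene with the highest ratio in scMeT-seq cells, Rab27a, lay within 2-fold in whole cells. Preparation and experiment cannot be told apart in this pair.

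The division of counts within a family gives a measure that scaling cannot move. The share of Rab7b in the Rab7 pair was 24.2% (95% exact binomial interval 20.0 to 28.7) in lactate+AZD cells and 9.95% (7.20 to 13.3) in lactate cells, and Rab7 held the larger part in both. Single cells overlapped, from 5.88% to 38.1% (median 20.8) in lactate+AZD and from 0% to 19.2% (median 10.5) in lactate cells. W10 held 51 of the 94 Rab7b counts of lactate+AZD cells. In the other experiments Rab7b held 39.9% in Lactic and 48.3% in CTL cells, 69.2% in the scMeT-seq cells, 67.6% in whole lactate cells and 45.4% in whole control cells. Rab5c made up 24.4% of the Rab5 counts in the scMeT-seq cells and 39.9% in whole lactate cells, 39.9% in whole lactate and 57.4% in whole control cells, 37.1% in Lactic and 29.7% in CTL cells, and 36.3% in lactate+AZD and 26.7% in lactate cells. The medians over single cells were 28.9% in Lactic cells (11.9 to 68.5) and 30.5% in CTL cells (8.43 to 100), so that the order of these medians was opposite to that of the sums. Rab2b made up 16.4% (13 to 20.3) of the Rab2 counts in Lactic cells and 5.77% (3.02 to 9.86) in CTL cells. Single cells overlapped, from 0% to 51.0% (median 6.81) in Lactic and from 0% to 19.0% (median 0) in CTL cells. Rab8a made up 29% of its pair in Lactic cells and 29.1% in CTL cells. Its share was 41.5% (33.3 to 50.1) in lactate+AZD and 28.9% (20.1 to 39.0) in lactate cells, with overlapping intervals. Single cells ran from 29.1% to 66.7% (median 42.1) in lactate+AZD and from 0% to 70% (median 35.7) in lactate cells. W5 held 33 of the 69 Rab8b counts of lactate cells and 0 counts of Rab8a. Rab11a outnumbered Rab11b in every group, with Rab11b at 28.9% to 47.9% of the pair.

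**Figure D5:**
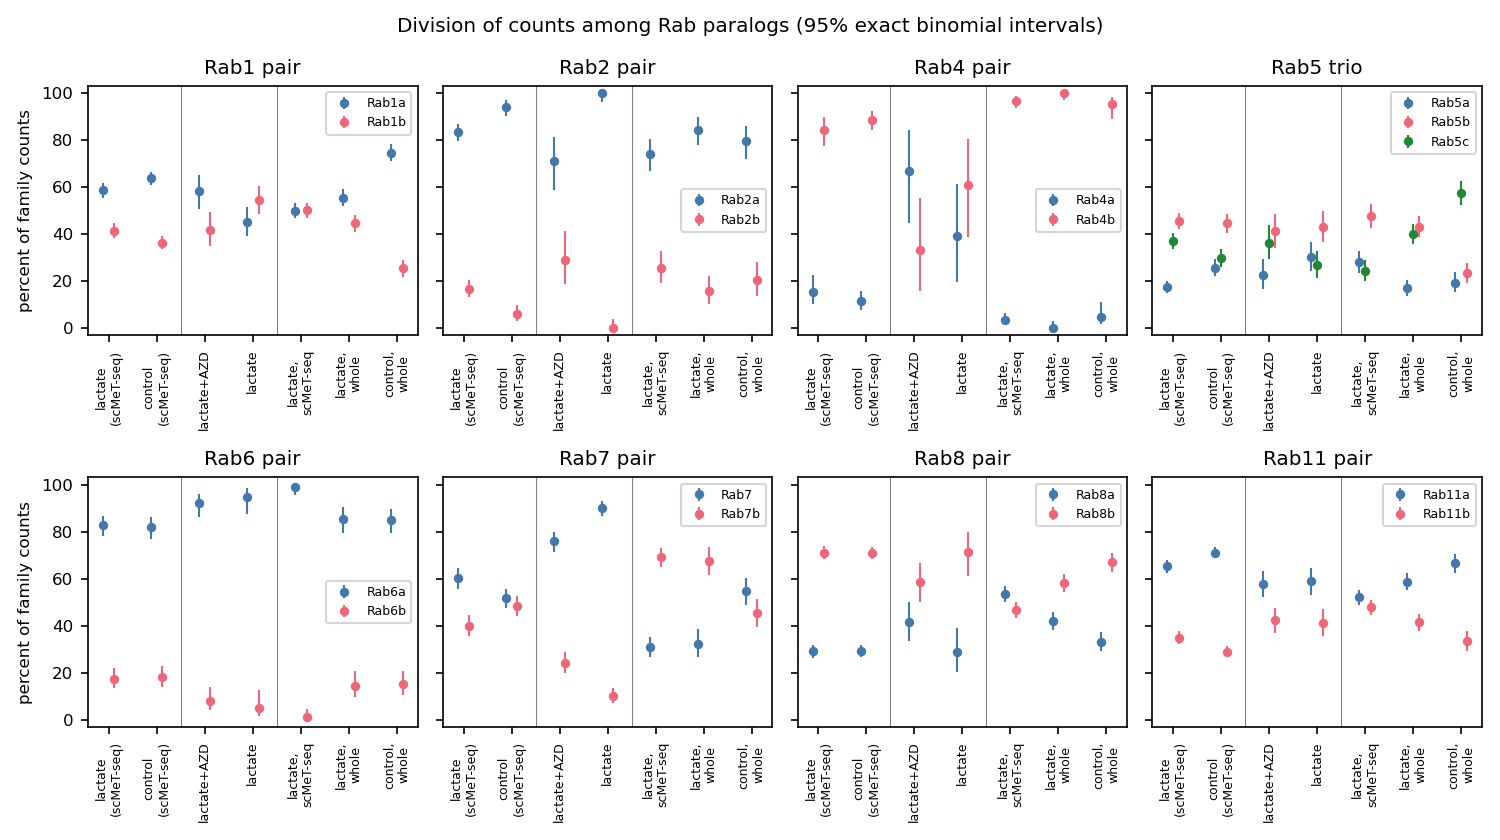
Percent of a family's counts (y axis) held by each paralog in the 7 groups (x axis), with 95% exact binomial intervals as lines and the 3 experiments separated by grey lines. Rab7b holds 24.2% of its pair in lactate+AZD cells and 9.95% in lactate cells, and passes Rab7 in the lactate-treated cells of the technique comparison.

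Rab7 set the AZD3965 experiment apart from the others. It had 359 to 708 CPM in all 10 cells of that table, treated or not, and 11.6 to 302 CPM in the other 25 cells, and it ranked 1 by CPM per kilobase there (193) and 8 and 14 in the lactate experiment and the technique comparison (37.5 and 27). The pseudogene Rab7-ps1 is listed only in the AZD3965 table, where lactate+AZD cells had 2 counts of it and lactate cells 3. Of 8243 genes with a mean of 10 CPM in these cells, 55 (0.667%) lay above in every cell of the AZD3965 table and 22 (0.267%) below, and of 36 such Rab genes Rab7 was the 1 above. Gm45140, which shares exons with Rab43, is likewise listed only there, with 17 and 14 counts in the lactate+AZD and the lactate sum. Rab4b differed in the other direction, with counts in 3 of 10 cells there (0 to 88.0 CPM) and in 25 of 25 cells elsewhere. Gm21983, which shares exons with Rab4b, is listed only in the AZD3965 table and was counted 2 times in lactate+AZD and 36 times in lactate cells. The tables were made separately and list different gene sets, so differences between experiments and between tables cannot be told apart.

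The proteins that switch Rabs on and off were counted in the same way. Of 40 exchange factors, all measured in lactate over control, 6 were at least 2-fold higher and 9 lower, with a median of -0.02, which is close to the 15.1% higher and 22.0% lower of all genes. Without the fibroblast-marked cells 8 of 36 exchange factors were higher and 7 lower, 3 and 7 of 27 GTPase-activating proteins and 10 and 5 of 42 effectors and tethers (19.9% and 18.3% of all genes). Ccz1, a subunit of the exchange factor that loads Rab7, was higher with 186 counts in 6 Lactic cells and 32 in 5 CTL cells (log2 ratio 2.49, 1.95 to 3.08). Hps4, part of the exchange factor of Rab32 and Rab38, was lower with 3 and 51 counts (-4.13), and Madd, the exchange factor of Rab3 and Rab27, with 9 and 78 (-3.16). Of 29 measured GTPase-activating proteins 5 were higher and 5 lower, the furthest being Tbc1d10a with 11 and 125 counts (-3.55). Tbc1d10a acts on Rab27a and Rab35. Of 43 effectors and tethers 7 were higher and 4 lower, among them Rabep2, an effector of Rab4 and Rab5, with 119 and 10 counts (3.53), the phosphatidylinositol kinase Pik3c3 with 104 and 27 (1.90) and Lrrk2, a kinase of Rab8, Rab10 and Rab12, with 847 and 341 (1.27, 1.08 to 1.45). Without the fibroblast-marked cells the ratio of Lrrk2 was 0.71, within 2-fold, while the other regulators named in this comparison stayed past 2-fold on the same side. Of 7 chaperones and prenylation genes 1 was higher, the escort protein Chm with 123 and 34 counts (1.81).

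In lactate+AZD over lactate, exchange factors had 4 higher and 8 lower of 31, GTPase-activating proteins 5 and 1 of 21, effectors and tethers 10 and 3 of 34, and chaperones 1 and 1 of 8, next to 24.9% higher and 15.6% lower of all genes. Without W14 these counts were 5 and 8 of 31, 5 and 4 of 21, 8 and 7 of 33 and 1 and 1 of 8, next to 20.5% and 21.6% of all genes. Ccz1 was lower here, at 10 counts against 76 in lactate cells (-2.62, -3.73 to -1.66), while Sgsm3, a GTPase-activating protein, was higher with 62 and 8 counts (3.26) and Rabep1, the Rab5 effector Rabaptin-5, with 36 and 9 (2.31). Pik3c3 had 0 and 33 counts. In whole lactate over whole control cells, where lower genes were the more common kind throughout, exchange factors had 4 higher and 13 lower of 36 (median -0.68) and effectors 3 and 10 of 40 (-0.40), next to 15.2% and 27.6% of all genes. Pik3c3 and Rabep2, higher in Lactic than in CTL cells, had ratios of -1.12 and -1.30 in whole cells. Chm (-1.39) and Tbc1d10a (1.49) were also past 2-fold on the other side there, Hps4 (0.12) and Ccz1 (0.31) lay within 2-fold, and Madd was lower again (-3.94). In the technique comparison 9 and 9 of 36 exchange factors, 6 and 5 of 28 GTPase-activating proteins and 11 and 9 of 41 effectors were higher and lower, next to 21.7% and 20.6% of all genes.

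At the promoters, RefSeq windows of 300 bases around the start (GRCm38.p6) were found for 48 of the 59 genes. The word CACGTG, the core of the site bound by basic helix-loop-helix factors such as TFEB, was read on both strands. It was present in a window of 6 of these genes (12.5%), namely Rab5a, Rab20, Rab21, Rab23, Rab24 and Rab27a. Over all genes with a window it was present in 2187 of 27025 (8.09%). The number of CG pairs was taken from the window of each gene that held the most. Its median was 24.5 over Rab genes and 8 over all genes. These matches are letters in a window and no binding was measured.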

How the data were processed

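The deposited files hold whole-number counts of reads per gene, which the authors made with fastp, HISAT2 and StringTie on mm10, and no versions are printed here. Total counts per cell and the counting intervals set the precision of each value. In the AZD3965 table, 1914 values were 1 and 6215 were 2, so counts there often move in steps of 2 and its intervals may be too narrow. The counts of the cells in a group were added up and scaled to a common total (CPM), and the log2 ratio was taken with an exact conditional binomial interval at 95% (scipy 1.17.1, numpy 2.4.6 and pandas 2.3.3 in Python 3.11.15). Ratios were made for every gene with 10 counts or more over both groups, a difference was called at 2-fold, and a group without counts was set to 3 counts. Cells were not used as replicates and no p-value was computed, because a group stands for 1 sample. The ratio and its interval were tested on simulated data. Alternatives were TMM factors (edgeR 4.0.16 in R 4.3.3), the mean of per-cell CPM, minimums of 1 and 100 counts, each cell left out, and cells carrying markers of another type left out. The rule that removes only fibroblast- or mesothelial-marked cells (4 cells) was added after the data were seen, because the planned rule (5 cells) also removed Lactic31 through Pf4, which these macrophages express. So were the comparison within name letters and the setting without W14 and W5. Named genes are those past 2-fold with an interval without 0 and a count in at least 50% of the cells of the higher group, the 10 most abundant per kilobase, and the 2 most abundant of each compartment. Other Rab genes were picked with their values known. For each regulator list 2 to 4 members past the same limits were to be named, and fewer are given where fewer bear on the Rab genes named. The members and lists were chosen with earlier results of these data known. Lengths, positions and coding bases are from GENCODE M21 (GRCm38) and promoters from RefSeq. Metabolome values were not used here.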

Additional observations from a re-analysis of the deposited data

Results flagged for a closer look

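Of 157 values examined in groups of 4 to 8 cells, 22 (14%) had a highest or lowest cell far from the others of its group by Dixon's test. The test is set to flag about 1 in 20 of independent, normally spread values. Single-cell CPM are not such values, and some sums hold genes examined on their own, so no excess of outlying cells is shown. A gene counted in few cells is easily set apart in this way, and no cause was tested.

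Several of these values belong to the cells that stand apart in the report. Lactic31 was lowest of the Lactic cells in the sum of all Rab genes (1785 CPM, next 3027), in the sum of early endosome Rab genes (457 CPM, next 928) and in Rab31 (69.2 CPM, next 296). The fibroblast-marked W14 was highest of the lactate+AZD cells in the sum of Golgi Rab genes (1577 CPM, next 753) and in Rab11a (566 CPM, next 297). Among lactate cells of the same table, W5 was highest in the Rab sum (4556 CPM, next 3606) and in Rab8b (247 CPM, next 75.4), T13 was lowest in the sum of late endosome Rab genes (450.3 CPM, next 789.5), and W20 was lowest in Rab31 (204 CPM, next 422).

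In the lactate experiment Lactic28 was highest of the Lactic cells in Rab43 (212 CPM, next 95.2) and in Rab7b (171 CPM, next 81.4). Among CTL cells, CTL27 was highest in Rab4b (249 CPM, next 109) and Rab6b (96.5 CPM, next 33.8), CTL35 in Rab40c (73.7 CPM, next 24.7) and Rab43 (70.7 CPM, next 29.4), CTL28 in Rab7 (302 CPM, next 147), CTL33 in Rab7b (279.6 CPM, next 124) and CTL30 in Rab24 (15.2 CPM, next 6.15). In the scMeT-seq cells of the technique comparison Lactic13 was highest in Rab27a (64.3 CPM, next 1.92) and Rab6a (138 CPM, next 51.6), Lactic14 in Rab34 (88.5 CPM, next 13.3) and Lactic17 in Rab39 (22.1 CPM, next 1.92).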

How the results depend on the processing

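Of the values that answer a comparison, 144 kept their direction and size and 44 moved, and of those of single genes 1339 were the same, 178 moved and 5 reversed. With 100 counts required, 1 Rab gene was higher and 3 lower in lactate over control, 2 and 1 in lactate+AZD over lactate, 1 and 1 in scMeT-seq over whole cells, and 0 and 3 in lactate over control in whole cells. Calling every interval without 0 gave 10 and 12 of 43, 13 and 5 of 38, 11 and 13 of 41, and 8 and 15 of 41 in the same order. Over all genes this gave 3262 and 4179 of 11506, 2493 and 1535 of 8764, 3179 and 3129 of 9723, and 2404 and 3677 of 9732. Shares over all genes are not given for the other filters, for TMM scaling, for the mean of per-cell CPM or for single cells left out in turn. TMM scaling gave 6 and 4 in lactate+AZD over lactate and 5 and 3 in whole cells. Without a filter 5 were lower in lactate+AZD over lactate and 5 higher in whole cells, and the mean of per-cell CPM gave 5 lower in lactate+AZD over lactate. Leaving out cells marked by another type gave 3 lower in lactate over control (without Lactic31 as well), and 5 higher and 8 lower in lactate+AZD over lactate, where both rules remove W14 alone, and without W14 and W5 6 were higher and 6 lower there. The cause of these moves was not tested, beyond fewer genes tested with 100 counts.

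Leaving out each cell in turn gave 5 to 9 higher and 4 to 8 lower in lactate over control (4 without Lactic31 or CTL32), 5 to 12 and 1 to 8 in lactate+AZD over lactate (5 and 8 without W14), 4 to 8 and 4 to 9 in scMeT-seq over whole cells, and 2 to 9 and 4 to 10 in whole cells. The median log2 ratios ran from -0.24 to 0.09, -0.17 to 0.41, -0.06 to 0.06 and -0.36 to 0.14, so no median kept its sign throughout. Reversed values were those of Rab34 in lactate over control without cells marked by another type (0.29, or 0.13 without fibroblast-marked cells alone), Rab39 there without CTL34 (0.19, with -1.64 at the other end), Rab12 in lactate+AZD over lactate without W10 (-0.11, against 2.34 without W5) and Rab40c in scMeT-seq over whole cells without Lactic5 (0.40, against -1.61 without Lactic7). With 5 counts required per cell, the median number of Rab genes detected was 28 instead of 33, and with the longest transcript 9 of the 10 most abundant genes were shared. No paired analysis was possible because no source says what the numbers in the names stand for and no test was run over cells.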
